A study of Arabidopsis thaliana with 12 samples.

Results

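A set of 10 genes of the proton pumps of Arabidopsis thaliana was followed, chosen by their gene identifiers, among 33602 genes in the table. These were the vacuolar H+-pyrophosphatase AVP1 (AT1G15690), the plasma membrane H+-ATPases AHA1 (AT2G18960) and AHA2 (AT4G30190), and 7 subunits of the vacuolar H+-ATPase (V-ATPase). The V-ATPase genes were VHA-A (AT1G78900), VHA-B1 (AT1G76030), VHA-B2 (AT4G38510), VHA-C (AT1G12840, listed in the annotation as DET3), VHA-a1 (AT2G28520), VHA-a2 (AT2G21410) and VHA-a3 (AT4G39080). All 10 had enough counts to be tested. The study sequenced RNA of pre-germinated seedlings of Col-0, the wild type, and of camta6-5, a mutant allele of CAMTA6, a gene for a calmodulin-binding transcription activator. Cold-stratified seeds were sown on a dilute agar-solidified MS medium that held either no NaCl (control) or 200 mM NaCl for 16 h. The 4 groups, with 3 libraries each, were untreated and salt-treated wild type and untreated and salt-treated camta6-5, and the question was how germinating camta6 mutants behave in salt. Only 1 mutant allele was sequenced, and the labels do not say whether libraries of a group came from separate sowings, so p-values measure the spread between these libraries, which may be technical.

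Proton pumps make the gradients that drive most transport across plant membranes. The plasma membrane H+-ATPase spends ATP to move protons out of the cell, which powers nutrient uptake, the export of sodium by Na+/H+ antiporters, and the wall acidification that goes with cell expansion. In the vacuole a pyrophosphate-driven pump, AVP1, and the V-ATPase acidify the lumen, and the gradient powers the loading of sodium and other ions into it. The V-ATPase is a rotary machine: its soluble V1 head, built of subunits A to H, hydrolyses ATP, and its membrane sector Vo, built of subunits a, c, c'', d and e, carries the protons. The a subunit decides where the complex works, with VHA-a1 at the trans-Golgi network and VHA-a2 and VHA-a3 at the vacuolar membrane.

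The members' own DNA shows what could be told apart. AHA1 and AHA2 shared 89.2% of aligned coding bases, and 0.57% of 50-base windows of AHA1 were found unchanged in AHA2, so few stretches of that length could match both. The ends of both coding sequences are shown because they hold the regulatory tail of the pump, whose phosphorylation and binding of 14-3-3 proteins switch it on. They are from the RefSeq assembly TAIR10.1, 5′ to 3′ on the coding strand with the stop codon last. Capitals mark bases that differ or have no partner in the other gene.
AHA1: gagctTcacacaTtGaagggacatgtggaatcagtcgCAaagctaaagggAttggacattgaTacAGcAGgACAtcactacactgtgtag
AHA2: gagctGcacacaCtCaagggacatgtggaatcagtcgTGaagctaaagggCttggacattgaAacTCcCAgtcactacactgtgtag
Over the 87 bases aligned here 11 differed, and 3 bases of AHA1 had no partner. The last bases, which include the codons nearest the stop, were the same in both genes. The other close pairs were VHA-a2 and VHA-a3 with 87.1% identity and VHA-B1 and VHA-B2 with 80.2%, and neither pair had a shared 50-base window. VHA-B1 was closest to VHA-B3 (90.1%), with 2.2% of its windows shared. How the authors counted reads that match more than 1 gene is not given in the sources used here.

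Promoters of AVP1, VHA-A and AHA2 are shown because these 3 genes fell by different amounts in the salt-treated wild type. Each is the 300 bases before the gene start in TAIR10.1, written in the direction of transcription. Capitals mark ACGTG, the core of the abscisic acid response element, and CGCG, the core of the box bound by CAMTA proteins, each searched on both strands. A CACGTG holds the ACGTG core once on each strand.
AVP1 (chr1:5398626-5398925, plus strand): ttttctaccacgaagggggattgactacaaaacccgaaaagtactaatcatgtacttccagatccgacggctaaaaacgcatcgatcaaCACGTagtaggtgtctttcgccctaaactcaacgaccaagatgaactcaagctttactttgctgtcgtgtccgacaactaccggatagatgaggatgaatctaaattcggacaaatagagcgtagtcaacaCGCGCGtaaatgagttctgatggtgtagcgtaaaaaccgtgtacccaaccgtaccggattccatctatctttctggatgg
VHA-A (chr1:29659788-29660087, plus strand): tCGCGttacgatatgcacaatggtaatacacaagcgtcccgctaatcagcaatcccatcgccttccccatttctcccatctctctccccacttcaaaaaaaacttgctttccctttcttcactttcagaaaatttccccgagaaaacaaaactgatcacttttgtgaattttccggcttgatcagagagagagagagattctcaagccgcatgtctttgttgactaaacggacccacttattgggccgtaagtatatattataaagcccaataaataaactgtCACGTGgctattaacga
AHA2 (chr4:14776248-14776547, minus strand): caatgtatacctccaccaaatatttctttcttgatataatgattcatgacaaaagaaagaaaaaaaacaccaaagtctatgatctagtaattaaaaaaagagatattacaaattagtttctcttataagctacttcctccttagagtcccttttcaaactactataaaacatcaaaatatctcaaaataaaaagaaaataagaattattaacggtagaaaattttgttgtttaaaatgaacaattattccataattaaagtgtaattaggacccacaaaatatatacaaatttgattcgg
AVP1 held 1 ACGTG, at 206 bases before the start, and 2 overlapping CGCG, the nearer at 74 bases. VHA-A held 1 CACGTG at 11 bases and 1 CGCG at 295 bases before the start. AHA2 held none of these letters in this window. In the deposited table these 3 genes start further downstream than in TAIR10.1, as does DET3 by far more, so distances counted from those starts would be longer. Among the other members VHA-a1 and VHA-B1 each had 1 ACGTG, VHA-a3 had 1 CGCG, and AHA1, VHA-a2, VHA-B2 and VHA-C had neither. Of 26711 gene windows of the same length 25.8% held ACGTG, 7.2% held CACGTG and 11.8% held CGCG. These matches describe letters and were not tested for binding.

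The libraries held 29473212 to 35450685 counts, and 18515 genes passed the filter on low counts. The share of counts on 18S ribosomal RNA ran from 0.0211% to 1.03%, and 4 of the 5 libraries with the largest share were labelled camta6-5. These were untreated camta6-5 libraries 1 and 3, salt-treated camta6-5 libraries 1 and 2, and untreated wild type library 1, and the main results that rest on them are given below with and without them. CAMTA6 (AT3G16940) itself stood at 17.8 ± 2.79 CPM (mean ± SD, n = 3, in counts scaled to a common library size with TMM factors) in untreated wild type, 30.9 ± 2.84 in salt-treated wild type, 34.8 ± 1.34 in untreated camta6-5 and 43.8 ± 7.43 in salt-treated camta6-5. Its counts were thus not lower in the libraries labelled camta6-5, and where the allele alters the gene is not given in the sources used here. The genotype is therefore taken from the labels throughout, and camta6-5 stands for the libraries labelled so.

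AVP1 had by far the most transcript of the 10 genes in every group, and 200 mM NaCl changed the order below it. On a scale of CPM per kilobase of spliced transcript, untreated wild type had AVP1 at 1168 ± 75.4 (SD, n = 3). Below it stood AHA2 at 162 ± 27.3, AHA1 at 156 ± 6.84 and VHA-A at 152 ± 11.3, whose ranges over libraries overlapped from one to the next. VHA-C at 66.4 ± 4.65 and VHA-B2 at 66.2 ± 5.23 overlapped as well, as did VHA-B1 at 41.7 ± 3.25 and VHA-a3 at 41.4 ± 2.35. VHA-a2 at 18.1 ± 0.512 and VHA-a1 at 11.5 ± 0.425 stood lowest, each clear of its neighbours. Salt-treated wild type kept AVP1 first at 552 ± 12.2, with AHA1 next at 202 ± 12.5 and VHA-A at 117 ± 7.34. AHA2 had moved down to 35.3 ± 2.99, among VHA-C at 38.5 ± 1.68, VHA-B1 at 34.0 ± 0.737, VHA-a3 at 32.6 ± 2.19 and VHA-B2 at 32.0 ± 0.212, a run in which each gene overlapped the next. In salt-treated camta6-5, AHA2 at 122 ± 8.62 still stood above VHA-C at 55.4 ± 1.89, without overlap. By CPM, AVP1 ranked 10 among the 18515 genes in untreated wild type, 33 in salt-treated wild type, 11 in untreated camta6-5 and 18 in salt-treated camta6-5.

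**Figure D1:**
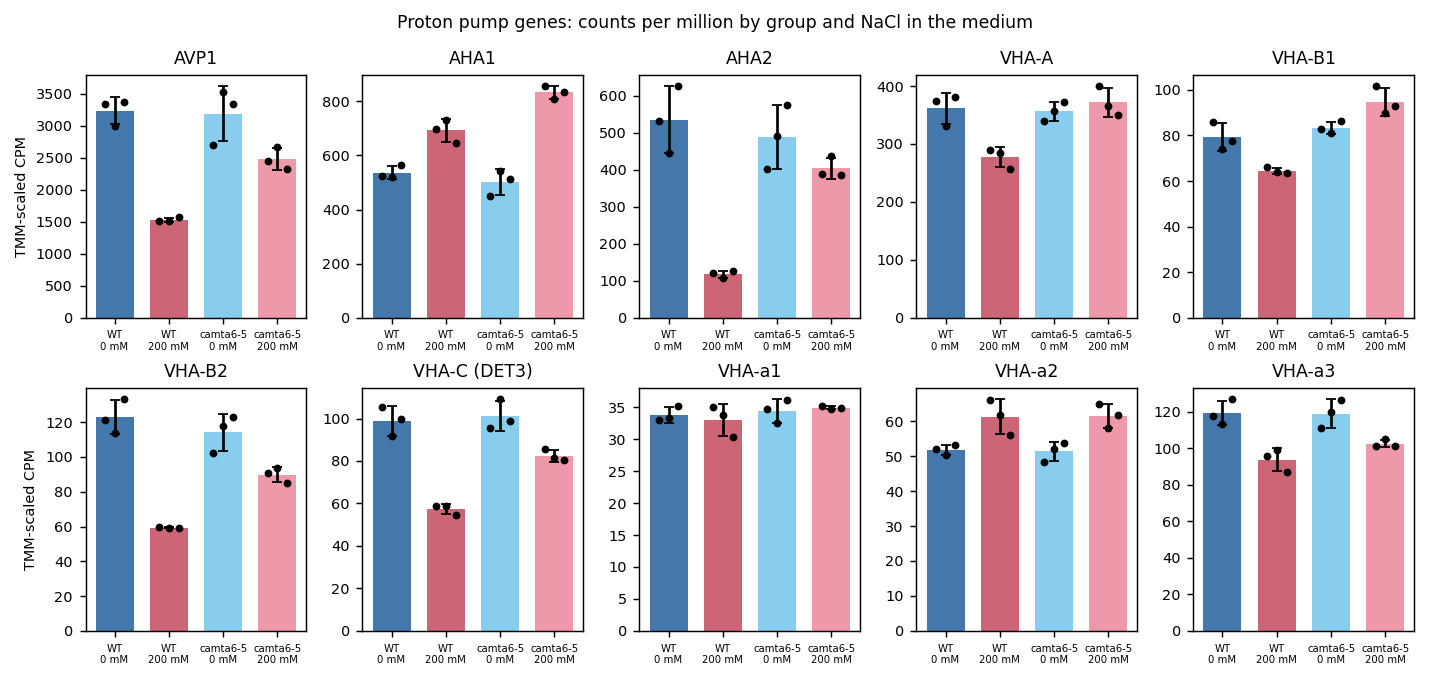
TMM-scaled CPM of the 10 proton pump genes by group; bars are means, error bars the SD and points the 3 libraries. AHA2 stood at 117 CPM in salt-treated wild type against 404 CPM in salt-treated camta6-5, and VHA-a1 lay between 33.0 and 34.9 CPM in all 4 group means.

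In wild type, 7 of the 10 members fell with NaCl and 2 rose, at an adjusted p under 0.05 in edgeR's quasi-likelihood test with Benjamini-Hochberg adjustment over all 18515 genes. Of all genes tested 39.6% fell and 37.9% rose, so most genes changed and a changed member is no rarity. The members' median log2 fold change was -0.37 against -0.01 over all genes. In camta6-5, 4 members fell, 3 rose and 3 did not pass the test, with a median of -0.10 against 0.01 over all genes, where 27.5% of genes fell and 28.2% rose. Both NaCl comparisons are within a genotype and share no library. The interaction is the NaCl response in camta6-5 minus that in wild type. It passed the test above 0 for 7 members and below 0 for none, against 27.1% and 21.0% of all genes. The first principal component, the axis on which libraries differed most over all genes tested, held 80.9% of the variance. On it untreated libraries lay from -86.15 to -66.02 in wild type and -90.78 to -67.5 in camta6-5. Salt-treated libraries lay from 118.2 to 131 in wild type and 15.79 to 33.08 in camta6-5. Whether the members' interactions go beyond this difference over all genes was not tested. In whole seedlings, fewer cells of a type and less RNA per cell cannot be told apart.

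**Figure D2:**
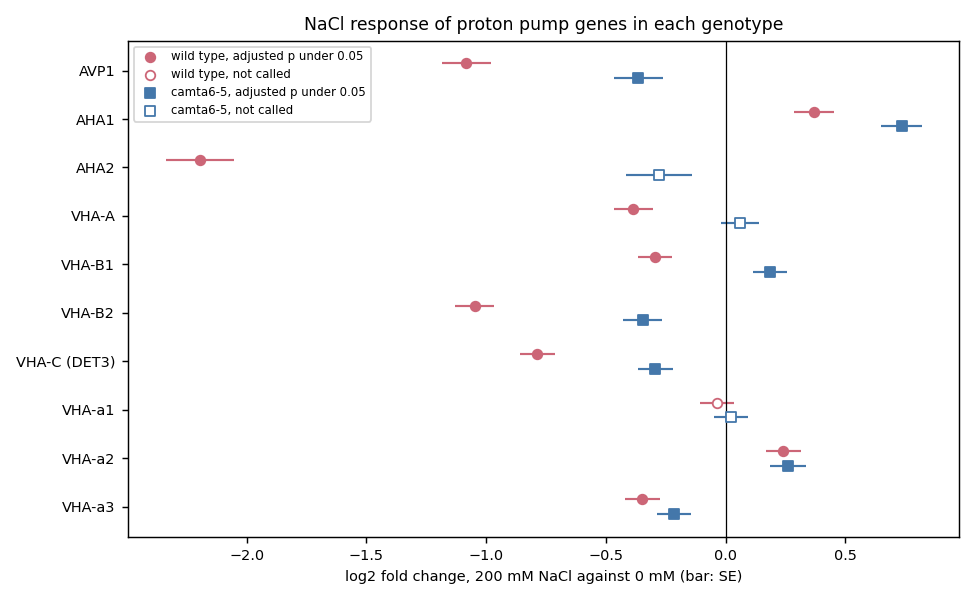
Log2 fold change with 200 mM NaCl of each proton pump gene in wild type (circles) and camta6-5 (squares), with the SE as bars; filled symbols passed the test. AHA2 lay at -2.19 in wild type and -0.28 in camta6-5, while both symbols of VHA-a2 lay near 0.25, at 0.24 and 0.26.

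AVP1, the vacuolar pump that runs on pyrophosphate, fell with NaCl in both genotypes, and more in wild type. It lies on chromosome 1 at 5398990 to 5402733 in the table's build, TAIR10. The libraries read 3344, 2997 and 3372 CPM in untreated wild type, and 1510, 1509 and 1568 CPM in salt-treated wild type. They read 2700, 3528 and 3332 CPM in untreated camta6-5 and 2441, 2660 and 2327 CPM in salt-treated camta6-5. Every NaCl library was below every control library of its genotype, and the salt-treated camta6-5 libraries all lay above those of salt-treated wild type. The fall was 2.12-fold in wild type (log2 -1.08 ± 0.103 SE, adjusted p = 5.22e-07) and 1.29-fold in camta6-5 (-0.36 ± 0.102, adjusted p = 0.00867). The interaction was 0.72 ± 0.145 (adjusted p = 0.00136). Without the 5 libraries richest in 18S RNA, which leaves 1 untreated and 1 salt-treated camta6-5 library assumed to vary like the others, it was 0.42 and did not pass (adjusted p = 0.0880), and the fall in camta6-5 was larger, at -0.61 (adjusted p = 0.0131). AVP1 overlaps 165 bases of ATPC2 (AT1G15700) on the other strand, which the kit does not mark. ATPC2 stood at 13.5 to 16.0 CPM in the group means, and the part of its reads in the AVP1 counts was not tested.

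The plasma membrane pumps AHA1 and AHA2 went in opposite directions in salt-treated wild type. AHA2, on the minus strand of chromosome 4 at 14770499 to 14776058, had 533, 446 and 626 CPM in untreated wild type and 120, 106 and 125 CPM in salt-treated wild type. Its camta6-5 libraries read 402, 489.9 and 575 CPM in control and 388, 437 and 386 CPM with NaCl. The salt-treated wild type libraries stood far below all 9 others, while salt-treated camta6-5 overlapped untreated camta6-5. AHA2 fell 4.58-fold in wild type (log2 -2.19 ± 0.143, adjusted p = 1.53e-08). In camta6-5 the change was -0.28 ± 0.137 with a 95% interval of -0.59 to 0.04 (adjusted p = 0.102), and without untreated camta6-5 library 1 it passed at -0.40 (adjusted p = 0.0263). The interaction, 1.92 ± 0.195 (adjusted p = 1.22e-05), was the largest among the members. It was 1.82 (adjusted p = 0.00427) without the 5 libraries richest in 18S RNA, where the change in camta6-5 was -0.35 (adjusted p = 0.281).

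AHA1, on chromosome 2 at 8221631 to 8227622, rose with NaCl in both genotypes. It had 525, 520.1 and 563 CPM in untreated wild type and 699.6, 732 and 647 CPM in salt-treated wild type. The camta6-5 libraries read 448, 542 and 512 CPM in control and 856, 810.0 and 835 CPM with NaCl. The 3 salt-treated camta6-5 libraries were the highest of the 12, and neither NaCl group overlapped its control. The rise was 1.29-fold in wild type (log2 0.37 ± 0.0836, adjusted p = 0.00115) and 1.67-fold in camta6-5 (0.74 ± 0.0839, adjusted p = 1.35e-05). The interaction was 0.36 ± 0.118 (adjusted p = 0.0215). It missed the threshold without untreated wild type library 3 (adjusted p = 0.0799), salt-treated wild type library 1 (0.0507) or 3 (0.0663), untreated camta6-5 library 1 (0.0784) or salt-treated camta6-5 library 1 (0.0522), and without the 5 libraries richest in 18S RNA it was 0.23 (0.335), with a rise of 0.62 in camta6-5 (adjusted p = 0.014).

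The balance between both pumps shifted inside each library, where scaling between libraries cannot act. Per kilobase, AHA1 to AHA2 was 0.950, 1.12 and 0.867 in untreated wild type and 5.62, 6.67 and 5.00 in salt-treated wild type. It was 1.07, 1.07 and 0.858 in untreated camta6-5 and 2.12, 1.79 and 2.08 in salt-treated camta6-5. Both NaCl groups lay above both controls and did not overlap each other. With labels permuted within genotype, NaCl raised the log2 ratio by 1.78 (exact permutation test, two-sided, p = 0.005, the smallest that 400 arrangements can give, adjusted p = 0.0375 over 15 ratio tests). Salt-treated camta6-5 was below salt-treated wild type by 1.52 on the log2 scale, with an exact permutation p = 0.1, the smallest that 3 against 3 libraries allow. Of the summed level of all 11 AHA genes per kilobase, AHA1 held 45.3 ± 2.64% in untreated wild type and 76.4 ± 2.23% in salt-treated wild type, and AHA2 held 46.5 ± 3.41% and 13.4 ± 1.55%. In salt-treated camta6-5 AHA1 held 61.7 ± 2.03% and AHA2 31.0 ± 1.93%.

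**Figure D3:**
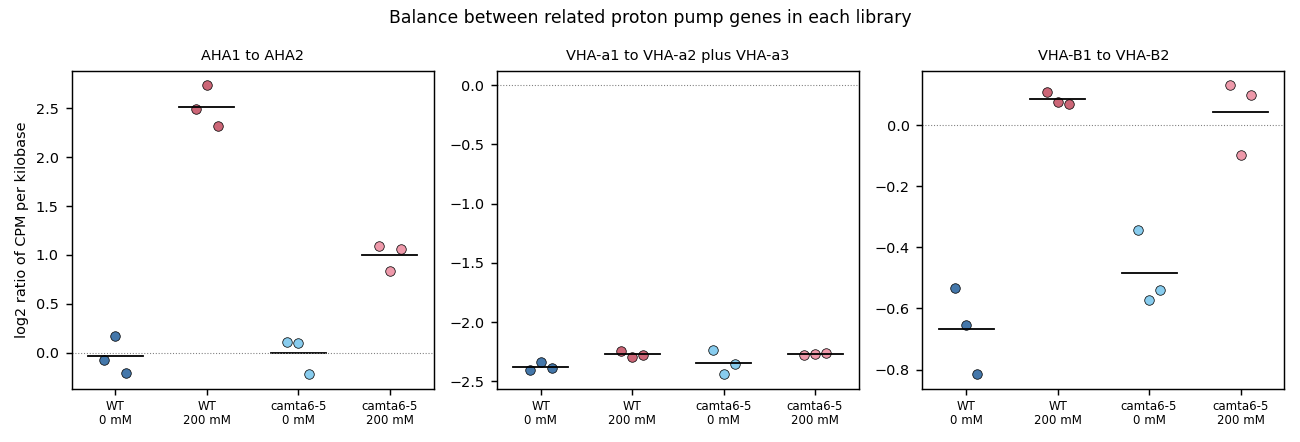
Log2 ratio of CPM per kilobase between related pump genes in each library, with the group mean as a line; the dotted line marks equal levels, and each panel has its own axis. AHA1 to AHA2 rose from a mean of -0.04 to 2.52 with NaCl in wild type and from -0.01 to a mean near 1 in camta6-5, and VHA-B1 to VHA-B2 rose from below 0 to about 0 in both.

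The V1 head subunits A, B1, B2 and C fell with NaCl in wild type, and for each of them the response in camta6-5 was less negative or positive. VHA-A, the catalytic subunit that hydrolyses ATP (chromosome 1, 29660184 to 29664951), had 374, 331 and 381 CPM in untreated wild type and 289, 285 and 257 CPM in salt-treated wild type. In camta6-5 it had 340.3, 357 and 373 CPM in control and 399.9, 365 and 350.4 CPM with NaCl. Only the salt-treated wild type libraries stood apart, below the other 9. VHA-A fell by 0.39 ± 0.0814 on the log2 scale in wild type (adjusted p = 0.000689) and stood at 0.06 ± 0.0813 in camta6-5 (adjusted p = 0.548), with an interaction of 0.45 ± 0.115 (adjusted p = 0.00634).

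The B subunit binds nucleotide beside A and comes from 3 genes, of which B1 and B2 are members. VHA-B2 (chromosome 4, minus strand, 18010812 to 18015173) had 122, 114 and 133 CPM in untreated wild type and 59.9, 59.1 and 59.3 CPM in salt-treated wild type. It had 102, 118 and 123 CPM in untreated camta6-5 and 90.8, 93.9 and 85.0 CPM in salt-treated camta6-5. Each NaCl group lay below both controls, and salt-treated wild type was the lower of the pair. VHA-B2 fell 2.07-fold in wild type (log2 -1.05 ± 0.0809, adjusted p = 7.02e-08) and 1.27-fold in camta6-5 (-0.35 ± 0.0800, adjusted p = 0.00259), with an interaction of 0.70 ± 0.113 (adjusted p = 0.000304). Its span shares 92 bases with AT4G38500 on the other strand, a gene at 31.0 to 33.9 CPM in the group means.

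VHA-B1 (chromosome 1, 28533798 to 28537194) had 86.0, 74.0 and 77.4 CPM in untreated wild type and 66.1, 63.8 and 63.6 CPM in salt-treated wild type. It had 82.7, 81.2 and 86.3 CPM in untreated camta6-5 and 102, 89.9 and 93.1 CPM in salt-treated camta6-5. The NaCl libraries were thus the lowest of the 12 in wild type and the highest in camta6-5. VHA-B1 fell by 0.30 ± 0.0712 in wild type (log2, adjusted p = 0.00187) and rose by 0.19 ± 0.0710 in camta6-5 (adjusted p = 0.0388). The latter call ended under 13 of the 22 alternatives, among them DESeq2 (adjusted p = 0.0776), RLE scaling (0.0806), no filter (0.0730), a fit of both camta6-5 groups alone (0.0545), and leaving out untreated camta6-5 library 1 (0.0945) or 2 (0.0942), salt-treated camta6-5 library 1 (0.174) or 3 (0.0629), untreated wild type library 3 (0.0504) or salt-treated wild type library 1 (0.0566), 2 (0.0552) or 3 (0.0538). Without the 5 libraries richest in 18S RNA it was 0.19 (adjusted p = 0.265). The interaction was 0.48 ± 0.101 (adjusted p = 0.00169).

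The unequal changes of VHA-B1 and VHA-B2 moved the B balance. VHA-B2 fell in both genotypes, while VHA-B1 fell only in wild type. VHA-B1 to VHA-B2 per kilobase was 0.692, 0.635 and 0.568 in untreated wild type and 1.08, 1.05 and 1.05 in salt-treated wild type, and 0.789, 0.673 and 0.687 in untreated camta6-5 and 1.09, 0.935 and 1.07 in salt-treated camta6-5. Every NaCl library exceeded every control library. Within genotype NaCl raised the log2 ratio by 0.64 (exact permutation test, p = 0.005, adjusted p = 0.0375). Between genotypes with NaCl the ratio differed by -0.04 (exact permutation p = 0.9). Of the 3 B genes per kilobase, VHA-B2 held 52.9 ± 2.06% in untreated wild type and 40.3 ± 0.757% in salt-treated wild type, VHA-B1 33.4 ± 1.99% and 42.7 ± 0.550%, and VHA-B3 13.7 ± 0.285% and 17.1 ± 1.17%.

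VHA-C is encoded by DET3, a single-copy gene named for a mutant that grows in the dark as if in light, and the subunit joins the head to the peripheral stalk. It lies on chromosome 1 at 4375515 to 4378514. It had 105, 91.6 and 99.7 CPM in untreated wild type and 58.8, 58.8 and 54.5 CPM in salt-treated wild type, and 95.5, 109 and 98.9 CPM in untreated camta6-5 and 85.7, 81.6 and 80.3 CPM in salt-treated camta6-5. Each NaCl group lay below both controls. DET3 fell 1.73-fold in wild type (log2 -0.79 ± 0.0734, adjusted p = 4.16e-07) and 1.23-fold in camta6-5 (-0.29 ± 0.0729, adjusted p = 0.00415), with an interaction of 0.49 ± 0.103 (adjusted p = 0.00172). Without the 5 libraries richest in 18S RNA the interaction was 0.26 for DET3 (adjusted p = 0.246), 0.30 for VHA-A (0.250) and 0.40 for VHA-B1 (0.0778), none of which passed, and 0.55 for VHA-B2 (0.0476), which did. The falls in camta6-5 were then -0.45 for DET3 (adjusted p = 0.0367) and -0.48 for VHA-B2 (adjusted p = 0.0388), while VHA-A stood at -0.03 (adjusted p = 0.900). What part the 18S share had in these results was not tested.

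The a subunit forms the proton path of Vo together with the ring of c subunits, and its 3 genes are given in turn. VHA-a1, the form of the trans-Golgi network (chromosome 2, 12209896 to 12215895), had 32.9, 33.3 and 35.3 CPM in untreated wild type, 35.1, 33.7 and 30.3 CPM in salt-treated wild type, 34.7, 32.5 and 36.1 CPM in untreated camta6-5 and 35.2, 34.7 and 34.8 CPM in salt-treated camta6-5. All 4 groups overlapped. Its log2 change with NaCl was -0.03 in wild type (95% interval -0.20 to 0.13, adjusted p = 0.667) and 0.02 in camta6-5 (-0.14 to 0.19, adjusted p = 0.814). Changes smaller than these bounds lie within the intervals.

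VHA-a2, a vacuolar form (chromosome 2, 9162620 to 9168452), rose in both genotypes. It had 52.1, 50.3 and 53.1 CPM in untreated wild type and 65.9, 61.9 and 56.1 CPM in salt-treated wild type, and 48.4, 51.9 and 53.9 CPM in untreated camta6-5 and 65.0, 58.0 and 61.7 CPM in salt-treated camta6-5. No NaCl library fell into the range of its controls. The log2 rise was 0.24 ± 0.0750 in wild type (adjusted p = 0.00952) and 0.26 ± 0.0752 in camta6-5 (adjusted p = 0.01), and the latter did not pass without the 5 libraries richest in 18S RNA (0.25, adjusted p = 0.237).

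VHA-a3, the other vacuolar form and the most abundant of the 3 (chromosome 4, 18209399 to 18215056), fell in both genotypes. It had 118, 114 and 127 CPM in untreated wild type and 95.8, 99.1 and 86.9 CPM in salt-treated wild type, and 111, 119.8 and 127 CPM in untreated camta6-5 and 102, 105 and 102 CPM in salt-treated camta6-5. The NaCl libraries lay below the controls in each genotype, by little in camta6-5. Its log2 change was -0.35 ± 0.0724 in wild type (adjusted p = 0.000626). In camta6-5 it was -0.21 ± 0.0724 (adjusted p = 0.0226), which did not pass with no scaling factors (adjusted p = 0.0625), without untreated camta6-5 library 3 (0.103), without salt-treated camta6-5 library 1 (0.0682) or 3 (0.0633), or without the 5 libraries richest in 18S RNA (0.240).

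The a subunits were the 3 members whose response to NaCl was not shown to differ between genotypes. The interaction was 0.06 for VHA-a1 (95% interval -0.18 to 0.29, adjusted p = 0.674), 0.02 for VHA-a2 (-0.23 to 0.26, adjusted p = 0.902) and 0.13 for VHA-a3 (-0.10 to 0.37, adjusted p = 0.303). Per kilobase, VHA-a3 held 58.3 ± 0.669% of the summed a level in untreated wild type and 50% ± 1.14 in salt-treated wild type, while VHA-a2 held 25.5 ± 0.527% and 32.9 ± 0.881% and VHA-a1 16.2 ± 0.352% and 17.2 ± 0.259%. In salt-treated camta6-5 the shares were 51.6 ± 1.42% for VHA-a3, 31.2 ± 1.46% for VHA-a2 and 17.2 ± 0.0680% for VHA-a1. The ratio of the Golgi form to the vacuolar forms, VHA-a1 to VHA-a2 plus VHA-a3, moved by 0.09 on the log2 scale with NaCl within genotype (exact permutation p = 0.025, adjusted p = 0.125), which did not pass.

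Between genotypes on medium without NaCl, none of the 10 members differed at an adjusted p under 0.05. The log2 changes ran from -0.13 to 0.08, with adjusted p from 0.667 to 0.988, and in every member the libraries of both groups overlapped. edgeR's unadjusted p was under 0.05 for 0 members, and DESeq2 and limma voom called 0. The shares of all genes with such an unadjusted p, or with no overlap of libraries, were not computed. Few genes differed at all, with 0.0864% of those tested higher in camta6-5 and 0.130% lower, which are 16 and 24 genes, or 14 and 33 with no scaling factors. The 95% interval was -0.26 to 0.21 for AVP1 and -0.44 to 0.19 for AHA2.

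With 200 mM NaCl, 7 members were higher in camta6-5 than in wild type and none was lower, where 33.8% of all genes were higher and 28.5% lower. AHA2 was 3.46-fold higher (log2 1.79 ± 0.141, adjusted p = 4.61e-07) and AVP1 1.62-fold (0.70 ± 0.103, adjusted p = 6.85e-05). VHA-B2 differed by 0.60 (adjusted p = 3.24e-05), VHA-B1 by 0.56 (2.1e-05), DET3 by 0.53 (4.25e-05), VHA-A by 0.42 (0.000544) and AHA1 by 0.27 (0.0136). The members' median was 0.47 against 0.05 over all genes. VHA-a3 differed by 0.13, which did not pass (adjusted p = 0.139). AHA1 did not pass without salt-treated wild type library 1 (adjusted p = 0.0566) or 3 (0.0945), and AHA1 (0.137) and VHA-A (0.0811) did not without the 5 libraries richest in 18S RNA. The interaction uses these 2 groups and both controls, so it is not independent of this comparison.

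Most of the other V-ATPase subunit genes fell with NaCl in wild type as well. Of 21 further genes, 19 were tested, and in wild type 15 fell with NaCl, 1 rose and 3 did not pass, with a median log2 change of -0.42. Of all genes tested 39.6% fell and 37.9% rose there. In camta6-5, 9 fell, 1 rose and 9 did not pass, with a median of -0.15, where 27.5% of all genes fell and 28.2% rose. The interaction passed the test above 0 for 10 and below 0 for 1, against 27.1% and 21.0% of all genes. Its median was 0.35 against 0.05 over all genes. With NaCl 13 were higher in camta6-5 than in wild type and 0 were lower, against 33.8% and 28.5% of all genes. Without NaCl 0 were called, against 0.0864% higher and 0.130% lower over all genes. An unadjusted p under 0.05 was found for 3 of the 19 in edgeR's test. The share of all genes with such an unadjusted p was not computed, so that count has nothing to be set against.

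AT4G26710, annotated as a V0 complex subunit E, had 34.5 ± 2.81 CPM in untreated wild type (SD, n = 3), 14.5 ± 0.517 in salt-treated wild type, 37.1 ± 2.07 in untreated camta6-5 and 27.8 ± 1.45 in salt-treated camta6-5. Its log2 change in wild type was -1.25 ± 0.0796 (adjusted p = 1.25e-08), with an interaction of 0.83 ± 0.110 (adjusted p = 7.39e-05). AVA-P1 (AT4G34720), a proteolipid subunit c of the rotating ring, went from 95.4 ± 7.36 to 43.5 ± 1.26 CPM in wild type and from 94.8 ± 10.4 to 71.9 ± 4.18 CPM in camta6-5 (wild type change -1.13 ± 0.0873, adjusted p = 6.83e-08, interaction 0.73, adjusted p = 0.000366). Its paralog AVA-P4 had an interaction of 0.61 (adjusted p = 0.00122), and VHA-D1, which links the ring to the head, one of 0.35 (adjusted p = 0.00586). AVA-P2, another proteolipid gene, was the only subunit gene of the 19 that rose in wild type, by 0.31 (adjusted p = 0.0132). The coding sequences of AVA-P1, AVA-P2 and AVA-P4 were 83.4% to 91.2% identical in pairs, with no 50-base window shared.

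E and G subunits form the peripheral stalk. VHA-E3 (AT1G64200) went from 674 counts over the 3 untreated wild type libraries to 1 count with NaCl, a ratio of 709 with a 95% counting interval of 127 to 2.8e+04. In camta6-5 it went from 767 to 24 counts, a ratio of 34.2 (22.8 to 53.7). These intervals cover counting error only, and they treat reads as independent molecules, which they are not. They leave out the spread between libraries, which read 4.55 to 9.48 CPM in untreated wild type. VHA-G2 (AT4G23710) went from 11.9 ± 1.07 to 4.26 ± 0.270 CPM in wild type (-1.48 ± 0.118, adjusted p = 9.36e-08). Its paralog VMA10 changed by -0.77 in wild type (adjusted p = 2.08e-05) and by -0.49 in camta6-5 (adjusted p = 0.00178). TUF (AT4G11150), the gene of the E1 subunit, stood at 140.5 ± 2.59 and 139.8 ± 6.56 CPM in wild type and went from 166 ± 5.42 to 136 ± 2.01 CPM in camta6-5, and was the 1 further subunit gene whose interaction passed the test below 0 (-0.28 ± 0.0824, adjusted p = 0.0129).

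**Figure D4:**
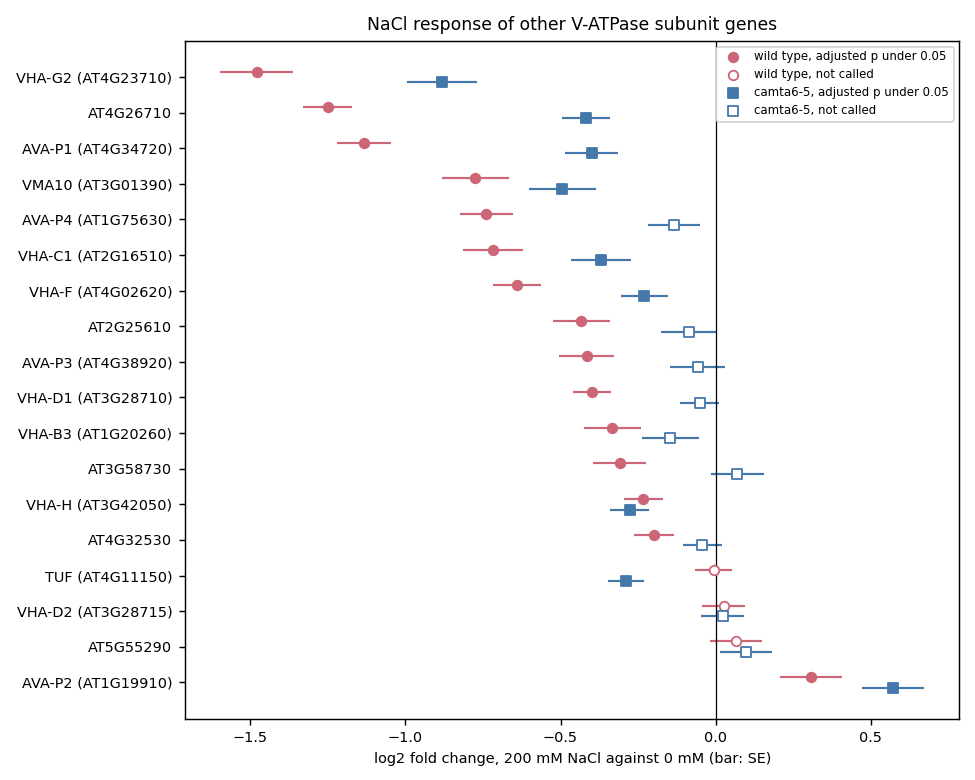
Log2 fold change with 200 mM NaCl of 18 further V-ATPase subunit genes in wild type (circles) and camta6-5 (squares), with the SE as bars; filled symbols passed the test, and VHA-E3 is left out because a group held 1 count. Proteolipid AVA-P1 lay at -1.13 in wild type and -0.40 in camta6-5, and AVA-P2 was the gene that rose in both.

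Both other H+-pyrophosphatases, AVP2 (AT1G78920) and VHP2 (AT1G16780), are known as the potassium-independent type of the Golgi. VHP2 had 27.1 ± 2.17 CPM in untreated wild type, 19.2 ± 1.0 in salt-treated wild type, 25.6 ± 2.86 in untreated camta6-5 and 31.0 ± 0.464 in salt-treated camta6-5. It fell by 0.50 in wild type (log2, adjusted p = 0.000171), rose by 0.27 in camta6-5 (adjusted p = 0.0173) and had an interaction of 0.77 (adjusted p = 0.000304). AVP2 changed by 0.04 in wild type (adjusted p = 0.639), rose by 0.25 in camta6-5 (adjusted p = 0.0179) and had an interaction of 0.21 (adjusted p = 0.149).

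Of the 9 other AHA genes, 7 were tested, and 1 rose and 2 fell in wild type with NaCl, while 2 rose and 0 fell in camta6-5. Over all genes tested 37.9% rose and 39.6% fell in wild type, and 28.2% rose and 27.5% fell in camta6-5. AHA3, listed as HA3 (AT5G57350), had 21.1 ± 0.552 CPM in untreated wild type, 11.7 ± 1.15 in salt-treated wild type, 22.0 ± 3.35 in untreated camta6-5 and 22.2 ± 1.11 in salt-treated camta6-5. It fell by 0.85 in wild type (log2, adjusted p = 7.93e-06) and had an interaction of 0.86 (adjusted p = 0.000528). AHA7 fell by 0.54 (adjusted p = 0.000947) with an interaction of 0.48 (adjusted p = 0.0295), and AHA4 rose by 0.78 in wild type (adjusted p = 3.1e-05). AHA8 stood at -0.27 in wild type (adjusted p = 0.0818) and AHA5 had an interaction of 0.25 (adjusted p = 0.0742). AHA11 had an interaction below 0 that did not pass (-0.22, adjusted p = 0.261). With NaCl AHA11 was lower in camta6-5 than in wild type (-0.37, adjusted p = 0.0101), while AHA3 (0.92, adjusted p = 1.01e-05) and AHA7 (0.39, adjusted p = 0.0114) were higher. AHA6 had 0 counts in all 12 libraries.

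The activity of the plasma membrane pump is set by its regulators as well as by its transcript. Of 13 regulator genes only 6 were tested, because the rest had too few counts. These were 6 SAUR genes with 0 to 5 counts over all 12 libraries, and CIPK11 with 87. SAUR proteins hold back the phosphatases that switch the pump off. Whether these SAUR genes share sequence was not examined, so reads that match more than 1 of them may be missing from the counts. Among type 2C protein phosphatases, AT3G51370 rose from 46.7 ± 2.82 to 82.6 ± 5.48 CPM in wild type (log2 0.82, adjusted p = 1.49e-06) and AT4G38520 fell from 45.5 ± 0.709 to 32.4 ± 2.17 CPM (-0.49, adjusted p = 1.64e-05, interaction 0.35, adjusted p = 0.00907). PPI1, a protein that binds and stimulates AHA1, fell by 0.47 (adjusted p = 0.00183). The phosphatase AT5G02760 had an interaction of -1.11 ± 0.420 (adjusted p = 0.0432) at about 1 CPM. ATJ3, a J-domain chaperone known to raise the activity of the pump, changed by 0.07 in wild type (adjusted p = 0.376), and AT3G17090 had an interaction of -0.01 (adjusted p = 0.931).

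Some genes outside the pumps followed the same course over the 4 groups. Likeness was the distance between group means of log2 CPM, each centred on its own mean, among 12136 genes of at least 10 CPM in a group. With so many genes and only 4 group means, close neighbours can arise from the numbers alone, and the likeness was not tested. Nearest to AVP1 were AT3G15410 (a distance of 0.0187), ABA4 (0.0277) and PTAC5 (0.0281). Nearest to AHA2 were AT5G66650 (0.1), XBAT31 (0.107) and YSL3 (0.122), and XBAT31 stood at 123, 24.2, 111 and 85.4 CPM in untreated wild type, salt-treated wild type, untreated camta6-5 and salt-treated camta6-5. Nearest to VHA-A were AT3G52905 (0.0152), emb1303 (0.0178) and AT5G58110 (0.0191).

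The material was whole pre-germinated seedlings, so endosperm and seed coat could contribute RNA. Of 5 endosperm markers 2 were tested, ATEPR1 and MAN7, and their list summed to 26.1 to 63.8 CPM over libraries in untreated wild type, 34.5 to 53.0 in salt-treated wild type, 28.6 to 33.3 in untreated camta6-5 and 39.3 to 57.5 in salt-treated camta6-5. MAN7 was higher in camta6-5 with NaCl than in its control by 0.33 (log2, adjusted p = 0.0470) and than in wild type with NaCl by 0.57 (adjusted p = 0.00233), in the same libraries in which 7 pump genes were higher than in wild type. ATEPR1 stood at 0.90 with NaCl in camta6-5 (adjusted p = 0.0614) and at -0.22 against wild type with NaCl (adjusted p = 0.623). RGE1 was at 0 counts throughout. None of 5 seed coat markers was tested, and TT10 and TT2 were at 0 counts in every library. The highest sum of the list in a library was 0.195 CPM. Whether the markers at or near 0 are active in these tissues at this stage was not examined. Their counts therefore do not show that a tissue is absent. The part of endosperm in the pump results was not tested.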

How the data were processed

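RNA was sequenced from 12 libraries of 4 groups. The deposited table held raw counts per gene, whole numbers with no normalization by the authors. Per the submitters' processing notes, reads were handled with TopHat2 2.1.0, Bowtie2 2.2.6, cutadapt 1.9, DESeq2 1.10.0 and HTSeq 0.6.1 on TAIR10, with settings not given in the sources used here. Per the labels, the TruSeq RNA v2 kit was used, which does not mark strand. Library totals ran from 29473212 to 35450685 counts.

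The models were fitted with edgeR 4.0.16 (R 4.3.3): filterByExpr (minimum count 10, minimum total 15), TMM scaling, 1 mean per group over all 12 libraries, and two-sided quasi-likelihood tests for 5 comparisons with Benjamini-Hochberg adjustment over 18515 genes and a threshold of 0.05. SE is the absolute log2 change over the square root of F. Intervals of 95% used 8 residual degrees of freedom. Per-kilobase levels used the spliced length of the first gene model of TAIR10.1, whose genes overlapped the table's spans for 32834 of 32835 matched nuclear genes. Ratios within libraries were tested by exact permutation (scipy 1.17.1). Sequences were read from RefSeq's TAIR10.1 and coding sequences aligned with Biopython 1.88.

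Alternatives were RLE or no scaling, no or a stricter filter (1 CPM in 3 libraries), DESeq2 1.42.0, limma 3.58.1 voom, the compared groups alone, a replicate block, each library left out, and, chosen after seeing the data, leaving out 18S-rich libraries or 18S and organelle genes. Members and gene lists were chosen with earlier results of these data known. Named genes are the 10 members, up to 4 genes of each further list with the smallest adjusted p for the wild type's NaCl response and as many for the interaction, and the 3 genes most like AVP1, AHA2 and VHA-A. AVA-P2, TUF, VMA10, VHA-B3, AT3G17090 and the untested genes were named after their values were seen, as were markers and genes that overlap a member. Deviations of same-numbered libraries correlated at -0.218 to 0.27, and only the control groups had every pair above 0.1 (0.225, 0.179 and 0.27), a hint of pairing from the data, since the labels state none. With the replicate block that comparison still called 0 members. No pair of replicates agreed within sampling noise (chi-square per degree of freedom of at least 10.64). The fit was tested on simulated data for NaCl in wild type, which called 31 of 57 genes with a true 1.5-fold change, 55 of 73 with a 2-fold and 63 of 70 with a 4-fold change, among 18515 genes, with 7 false calls.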

Additional observations from a re-analysis of the deposited data

Results flagged for a closer look

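In 7 of the 10 pump genes the response to NaCl differed between genotypes by the interaction test in edgeR, all above 0. Of all genes tested 27.1% passed above 0 and 21.0% below. On the first principal component, salt-treated camta6-5 lay nearer the controls than salt-treated wild type did. Whether the members' interactions go beyond that was not tested. The response in camta6-5 minus that in wild type, on the log2 scale, was 0.72 for AVP1, 0.36 for AHA1, 1.92 for AHA2, 0.45 for VHA-A, 0.48 for VHA-B1, 0.70 for VHA-B2 and 0.49 for DET3. For AHA1 this is a larger rise in camta6-5, and the call of its interaction ended under 6 of the 21 alternatives that gave one. For VHA-B1 it is a fall in wild type beside a rise in camta6-5 whose call ended under 13 of the 22 alternatives. For the other 5 it is a fall in wild type that was smaller or not detected in camta6-5.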

How the results depend on the processing

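No member reversed direction with a call under any alternative. Of the members' counts of calls, 2 moved by more than 1.5 times, both without the 5 libraries richest in 18S RNA: members that rose in camta6-5 went from 3 to 1, and members whose interaction passed above 0 from 7 to 2 (AHA2 and VHA-B2). That setting keeps 1 camta6-5 library per treatment and so has fewer samples, and the cause was not tested further. There, over all genes, it called 2796 rises and 2458 falls in camta6-5 against 5216 and 5085, 2607 and 1970 interactions against 5017 and 3888, and 3 and 1 genotype differences without NaCl against 16 and 24. The latter were 33 and 42 with no filter, 72 and 85 by DESeq2, 5 and 6 with both groups alone, and 8 to 17 and 16 to 30 when 1 library was left out. The replicate block left the members' counts at 2 rises and 7 falls in wild type, 3 and 4 in camta6-5, and 7 interactions, and it changed no call of a member. Same-numbered libraries of the other groups share only a number. Over all pairs of a single member's change and an alternative, 33 lost a call and 1 gained one. The 3 ratio tests within genotype kept an unadjusted exact permutation p under 0.05 when 1 library was left out. The adjusted p was not computed there, and the VHA-a ratio had not passed after adjustment with all libraries. Tests of 3 against 3 libraries could not pass in either case. The median change over all genes moved by less than 0.1 under every scaling. In the simulated data 31 of 57 genes with a true 1.5-fold change were called. Far fewer genes changed there than in these libraries, which makes the adjusted threshold stricter. How often such changes are missed in these data was therefore not tested.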
